A study of Mus musculus with 10 samples.

Results

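The lysyl oxidase family was examined in left ventricles of mouse hearts after pressure overload. Its 5 genes, Lox, Loxl1, Loxl2, Loxl3 and Loxl4, were taken by their gene symbols from a whole-genome mRNA array and were 5 of its 19942 gene symbols, with 10 of its 26423 probes. Of these, 9 probes covering all 5 genes were among the 19976 probes kept after the removal of very low values. The removed probe, mMC005585 of Loxl1, read between −5 and 3 in raw intensity, and its spot was found on 0 of 10 arrays.

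Male C57BL/6J mice of 8 weeks underwent transverse aortic banding (TAB), a surgical narrowing of the aorta that raises the load on the left ventricle, or a sham operation. Both groups were of the same strain, sex and age, and the labels name no transgene or further agent. On each of days 3, 5, 7, 14 and 28 following the operation 1 TAB and 1 sham sample were taken, 10 in all, and their RNA was hybridized to 1-colour arrays. How many mice contributed to a sample is not given in the sources used here. With 1 sample per operation and day, the tests below take the 5 days as replicates of an average TAB effect, so their p-values measure the spread of the TAB/sham ratio between days, which includes time after surgery, animal and array. The TAB sample titled day 14 is given as 15 days in another of its labels and is called day 14 here.

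Lysyl oxidases are secreted, copper-dependent amine oxidases that convert lysine and hydroxylysine side chains of collagen and elastin into reactive aldehydes, which then form the covalent cross-links of mature fibres. Lox and Loxl1 are made as precursors whose propeptides are removed by Bmp1-type proteases, whereas Loxl2, Loxl3 and Loxl4 share a scavenger receptor domain architecture. In the heart, fibroblasts and myofibroblasts are the main known source of fibrillar collagen, and cross-linking of collagen is known to accompany fibrosis and stiffening of the ventricle.

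Raw array medians lay between 34.0 and 57.0, and 40.2% to 47.3% of the spots of an array were not found by the scanning software, which is how a deposited flag below 0 was read. A probe whose spot was not found is described here as not well above background on that array. The deposited detection p-value was under 0.05 for 18.8% to 38.6% of the probes of an array and was highest in share on the sham arrays of days 7 and 28. Correlations of log2 normalized intensity across probes were 0.966 to 0.976 between sham arrays, 0.962 to 0.977 between TAB arrays and 0.938 to 0.972 between a TAB and a sham array. The labelled tissue was borne out by its defining markers: all 8 cardiomyocyte markers were measured and their summed normalized intensity lay between 220385 and 259478 on the 10 arrays. The hypertrophy markers Nppa and Nppb, natriuretic peptides of the loaded heart, and Acta1, skeletal actin, were higher in TAB by 1.81, 1.67 and 1.76 on the log2 scale, and Myh7 was not analysed here.

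Lysyl oxidase mRNA was higher after TAB than after sham operation for Lox, Loxl1, Loxl2 and Loxl3. For Loxl4 it was higher by 1 of 3 probes, a call lost with any day left out, and not by the mean of its probes (limma adjusted p = 0.0575). In the average over the 5 days, 7 of the 9 kept probes rose and none fell (limma with day as a block, Benjamini-Hochberg adjusted p under 0.05 over all kept probes), whereas 7.47% of all kept probes rose. With both samples of one day left out, the count of probes passing was 1 without day 3 or day 7, 3 without day 5 or day 14 and 7 without day 28. The median of the mean log2 TAB/sham ratios was 2.47 for the 9 probes and −0.05 for all kept probes. For 6 of the 9 probes each TAB value lay above each sham value, which held for 8.78% of all kept probes. Normalized intensity was higher in TAB than in the sham sample of the same day in 41 of 45 probe and day pairs. The share of such pairs over all kept probes is not given here.

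**Figure D1:**
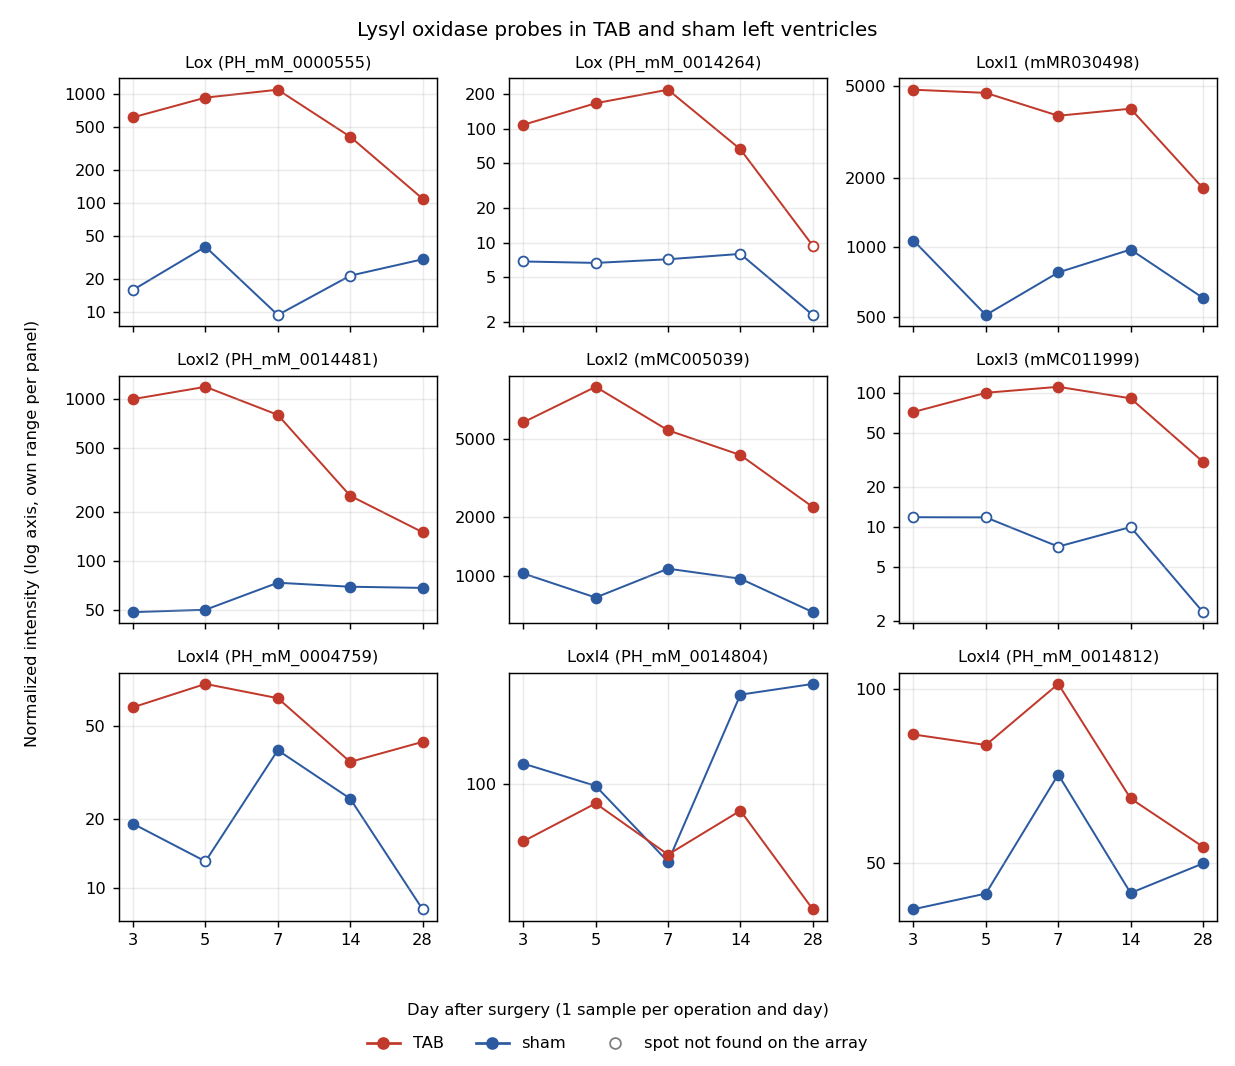
Normalized intensity (log axis with its own range in each panel) of the 9 lysyl oxidase probes by day after surgery in TAB (red) and sham (blue), 1 sample per operation and day, with open circles where the spot was not found. The TAB points lie above all sham points for the probes of Lox, Loxl1, Loxl2 and Loxl3. TAB was lowest on day 28 for 8 of the 9 probes, and the share over all kept probes is not given.

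Lox, the founding member and a cross-linking enzyme of collagen and elastin, was measured by a pair of probes that were both higher in TAB on each day. For its probe PH_mM_0000555 the normalized intensity in TAB was 608, 922, 1090, 404 and 109 on days 3, 5, 7, 14 and 28. In sham it was 15.9, 39.5, 9.34, 21.4 and 30.3 on the same days. All TAB values were above all sham values, and TAB peaked on day 7 and was 9.99-fold lower on day 28. The sham values had no single direction over the 5 days, though they rose from day 7 to day 28. As measured, the mean log2 ratio was 4.55 with a standard error of 0.66 (limma adjusted p = 0.0205, TAB higher on 5 of 5 days). The sham spot was found on 2 of 5 arrays and was not well above background on days 3, 7 and 14, so the ratios of those days rest on dim sham values. This ratio is 23.4-fold with a 95% confidence interval of 7.70 to 71.4. Alternatives chosen after seeing the data raised those spots to the lowest found spot or the 1st percentile of the found spots of their array. TAB was then 21.6-fold or 16.9-fold higher (limma adjusted p = 0.0130 and 0.00501). Neither fold is a lower bound, since a spot not found can read above either floor. On the sham array of day 3 such spots read up to 497 in raw intensity. With 50 added to each intensity the mean log2 ratio was 2.94. The detection p-value was under 0.05 on 4 of 5 TAB arrays, day 28 (0.649) being the exception, and on 0 of 5 sham arrays.

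The other Lox probe, PH_mM_0014264, gave 108, 167, 219, 65.8 and 9.41 in TAB and 6.84, 6.64, 7.15, 7.97 and 2.32 in sham. Its course was that of the first probe, with the highest TAB value on day 7 and the lowest on day 28, where the spot was not found and the value came close to the highest sham value. Since none of the 5 sham spots was found, the difference is given with floors. TAB was 8.98-fold higher when each sham value is taken as the higher of its own reading and the lowest found spot of its array. With the 1st percentile of the found spots as that floor, also chosen after seeing the data, TAB was 3.09-fold higher. Both folds take the TAB value of day 28 as read, although its spot was not found, so neither is a strict lower bound. The limma adjusted p was 0.0159 on the values as measured, and 0.0244 and 0.0226 with spots not found raised to these floors in both groups. The detection p-value of this probe was not under 0.05 on any array, with 0.262 as its lowest value in TAB.

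Loxl1, which acts mainly in the cross-linking of elastin, was measured by mMR030498. Its normalized intensity in TAB was 4822, 4671, 3718, 3989 and 1805 on days 3, 5, 7, 14 and 28, and in sham it was 1071, 509, 778, 978 and 604. The groups did not overlap, the 4 TAB values up to day 14 lay close to one another, and TAB fell to its lowest level on day 28. The mean log2 ratio was 2.25 with a standard error of 0.23 (limma adjusted p = 0.0143, higher on 5 of 5 days), or 4.75-fold with a 95% confidence interval of 3.21 to 7.02. The log2 ratio was 2.17, 3.20, 2.26, 2.03 and 1.58 on the 5 days. The day 5 value was thus the highest, and it coincided with the lowest sham value, 509, whereas TAB itself was highest on day 3. The spot was found on all 10 arrays with a detection p-value of 0.00400 or less.

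Loxl2, which cross-links collagen IV of basement membranes as well as fibrillar collagen, was measured by a pair of probes. With mMC005039, normalized intensity in TAB was 6089, 9242, 5545, 4145 and 2250 on the 5 days and in sham 1030, 776, 1090, 968 and 654. The groups did not overlap, and from day 5 onward each TAB value was lower than the one before. The mean log2 ratio was 2.47 with a standard error of 0.26 (limma adjusted p = 0.0143, higher on 5 of 5 days), or 5.55-fold with a 95% confidence interval of 3.57 to 8.63. This spot was also found on all 10 arrays and had detection p-values of 0.000313 or less.

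The second Loxl2 probe, PH_mM_0014481, read 995, 1185, 796, 253 and 151 in TAB and 48.8, 50.5, 74.0, 69.9 and 68.8 in sham. Both probes were highest in TAB on day 5 and lowest on day 28 with no overlap of the groups, but the ratio of PH_mM_0014481 fell further. Its log2 ratio was 4.35, 4.55, 3.43, 1.86 and 1.14 on days 3, 5, 7, 14 and 28, against 2.56, 3.57, 2.35, 2.10 and 1.78 for mMC005039. The mean for PH_mM_0014481 was 3.07 with a standard error of 0.55 (limma adjusted p = 0.0277), or 8.37-fold with a 95% confidence interval of 3.30 to 21.2. Its sham spots were found on all 5 arrays, yet its detection p-value was under 0.05 on 3 of 5 TAB arrays and 0 of 5 sham arrays. In the mouse annotation used here Loxl2 is also an older symbol of Loxl3, and the symbols are those of the array's own annotation.

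Loxl3, a member with known roles in the developing skeleton and palate, was measured by mMC011999. Normalized intensity in TAB was 72.2, 100.4, 111, 91.3 and 30.7 on the 5 days and in sham it was 11.8, 11.8, 7.15, 10.01 and 2.32. The groups did not overlap, and the TAB spot was found on 5 of 5 arrays while the sham spot was found on 0 of 5. TAB was 6.75-fold higher with the lowest found spot of each sham array as the floor, and 3.04-fold higher with the 1st percentile of the found spots. Neither fold is a strict lower bound, since a spot not found can read above these floors. The limma adjusted p was 0.00548 on the values as measured, and 0.00539 and 0.00576 with the floors. Against these dim sham values, the daily log2 ratio was 2.61, 3.09, 3.96, 3.19 and 3.72. With the sham spots raised to the lowest found spot it was 2.61, 3.09, 2.97, 3.19 and 1.92, so day 28 was the lowest with this floor but not as measured. The detection p-value was above 0.05 on all 10 arrays, with 0.622 as the lowest, and with 50 added to each normalized intensity before the log2 the mean ratio of Loxl3 was 1.12 in place of 3.31.

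Loxl4, the member least known in the heart, had 3 kept probes, and they did not move alike. PH_mM_0004759 read 60.5, 76.4, 66.3, 35.1 and 42.9 in TAB and 18.98, 13.05, 39.5, 24.4 and 8.11 in sham. TAB was higher on each day, but the groups overlapped, since the sham value of day 7 exceeded the TAB value of day 14. The mean log2 ratio was 1.58 with a standard error of 0.35 (limma adjusted p = 0.0376). The log2 ratio was 2.55 on day 5 and 2.40 on day 28 against 0.75 on day 7 and 0.53 on day 14, the sham spots of days 5 and 28 not being found. The detection p-value was under 0.05 on 0 of 10 arrays, with 0.745 as its lowest value in TAB, and with spots not found raised to the 1st percentile of the found spots the mean log2 ratio was 1.11 (limma adjusted p = 0.0139). The call as measured did not hold when any single day was left out, with adjusted p-values from 0.0538 to 0.107.

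The other Loxl4 probes were found on all 10 arrays and did not pass the test. PH_mM_0014812 read 83.4, 80.0, 102, 64.7 and 53.4 in TAB and 41.7, 44.4, 71.1, 44.5 and 50.01 in sham, a mean log2 ratio of 0.60 with a standard error of 0.16 (limma adjusted p = 0.0529). PH_mM_0014804 read 80.1, 92.8, 76.1, 90.2 and 61.6 in TAB and 108, 99.3, 74.0, 142 and 147 in sham, a mean log2 ratio of −0.48 with a 95% confidence interval of −0.98 to 0.02 (limma adjusted p = 0.162). It was the 1 family probe with TAB below sham on most days. Averaged over its 3 probes, Loxl4 had a mean log2 ratio of 0.57 (limma adjusted p = 0.0575), so the direction of Loxl4 depends on the probe.

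**Figure D2:**
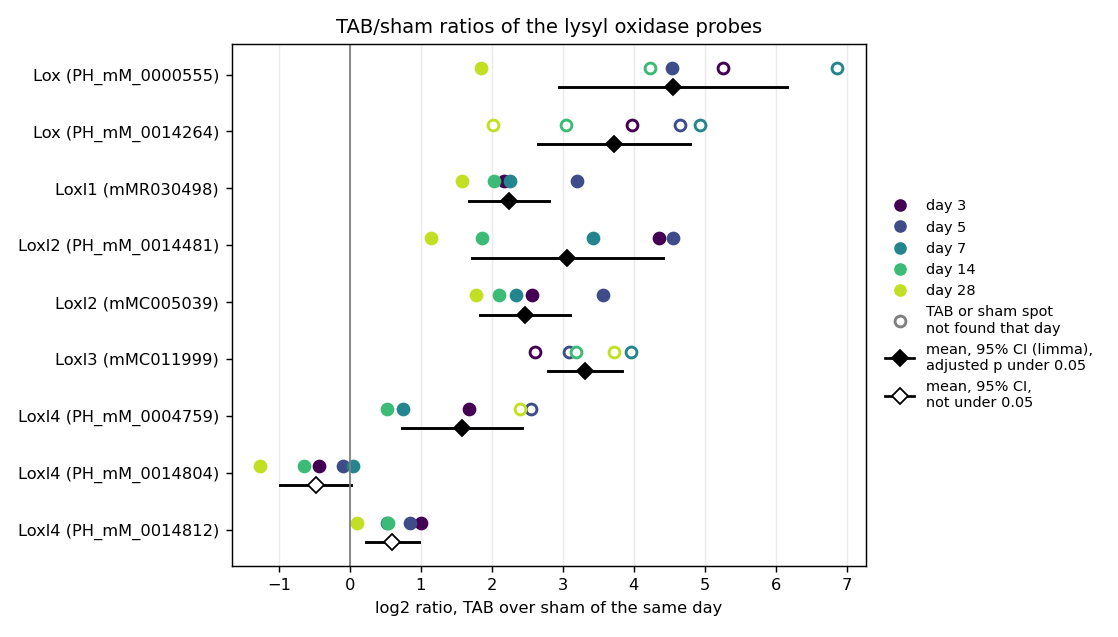
Log2 TAB/sham ratio of each lysyl oxidase probe on the 5 days (coloured points) with the mean over days and its 95% confidence interval from limma (diamonds, filled where the adjusted p is under 0.05). Open points are days on which the TAB or the sham spot was not found, which is the case for Loxl3 and PH_mM_0014264 of Lox on all 5 days, so that their means are not exact. The mean of Loxl1 is 2.25 and those of Loxl2 are 3.07 and 2.47, and the 3 Loxl4 probes lie on both sides of 0.

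On single days, where there is no replicate check, a ratio more than 2 SDs of the log2 ratios of all kept probes from 0 was taken as a call. The threshold on the log2 scale was 1.75, 1.87, 1.71, 1.46 and 1.38 on days 3, 5, 7, 14 and 28. Of the 9 family probes, 6 were above it on day 3, 7 on day 5, and 6 on each of days 7, 14 and 28. Among all kept probes 3.07%, 3.77%, 3.71%, 3.29% and 3.36% were above it on those days. Both Lox probes, Loxl1, mMC005039 of Loxl2 and Loxl3 passed on 5 of 5 days, PH_mM_0014481 of Loxl2 on 4 days and PH_mM_0004759 of Loxl4 on 2 days. For PH_mM_0014264 of Lox on day 28 neither spot was found, and with both raised to the lowest found spot the log2 ratio was 0.22 and did not pass. For Loxl3 on day 28 it was 0.79 with the sham spot raised to the 1st percentile of the found spots, and did not pass either. For PH_mM_0004759 of Loxl4 this floor took the day 5 ratio from 2.55 to 1.35, which did not pass, while day 3 (1.67) did. With the thresholds set anew under the floors, PH_mM_0014804 of Loxl4 on day 28 (−1.26) passed as lower with either floor, and PH_mM_0014481 of Loxl2 on day 28 (1.14) passed as higher with the 1st percentile.

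Sham samples of different days were also compared with one another, in 10 pairs, as a measure of spread without banding. The largest absolute log2 difference between sham samples was 1.07 for Loxl1 and 0.74 and 0.60 for mMC005039 and PH_mM_0014481 of Loxl2, and all 5 daily TAB/sham ratios of these 3 probes exceeded it. For PH_mM_0000555 of Lox it was 2.08, and the ratios exceeded it on 4 of 5 days, day 28 being the exception. For PH_mM_0004759 of Loxl4 it was 2.28, exceeded on days 5 and 28. For PH_mM_0014804 it was 0.995, exceeded on day 28 alone, where TAB was lower, and for PH_mM_0014812 it was 0.77, exceeded on days 3 and 5. Loxl3 and PH_mM_0014264 of Lox are left out here, since their sham spots were not found.

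An early and a later stage of the response are distinguished in the study. The ratio was therefore compared between days 14 and 28 and days 3, 5 and 7. For 8 of the 9 probes the mean ratio was smaller in the later stage, and the share of all kept probes for this is not given here. Among these 8, PH_mM_0014804 of Loxl4 was below sham early and further below it late. For Loxl3 the difference was 0.24 as measured, but −0.33 and −0.47 with the sham spots raised to the floors, −0.32 with 50 added, −0.067 without day 3 and −0.029 without day 28, so it has no settled direction. For PH_mM_0004759 of Loxl4 it was −0.19, and 0.26 without day 5 and 0.75 without day 14. PH_mM_0014481 of Loxl2 went from a mean log2 ratio of 4.11 early to 1.498 late, a difference of −2.61 with a standard error of 0.44 (limma unadjusted p = 0.00190). The other Loxl2 probe, mMC005039, went from 2.83 to 1.94, a difference of −0.89 with a standard error of 0.43 (limma unadjusted p = 0.0920). For PH_mM_0014264 of Lox, whose sham spots and TAB spot of day 28 were not found, the difference was −1.99 as measured (limma unadjusted p = 0.00658), and −2.56 and −1.82 with the floors. For PH_mM_0000555 of Lox it was −2.52 as measured (limma unadjusted p = 0.0507), and −2.31 and −1.93 with the floors. For Loxl1 it was −0.74 (unadjusted p = 0.121). These sizes depended on single days: the difference of PH_mM_0000555 was −1.32 without day 28, that of Loxl1 −0.41 without day 5 and that of mMC005039 −0.52 without day 5. For PH_mM_0014804 and PH_mM_0014812 of Loxl4 it was −0.79 and −0.47, and −0.48 and −0.25 without day 28.

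After adjustment over all kept probes, limma called 0 of the 9 probes and 0 of 19976 in all, with adjusted p = 0.371 and 0.425 for PH_mM_0014481 and PH_mM_0014264. At an unadjusted p under 0.05 by limma, 3 of the 9 probes were smaller late, against 6.03% of all kept probes. These were PH_mM_0014481 of Loxl2, PH_mM_0014264 of Lox and PH_mM_0014804 of Loxl4. The mean log2 ratio of PH_mM_0014804 went from −0.16 early to −0.95 late, so it moved further below sham rather than losing a rise. With limma's trend and robust options, 1 probe of the family, PH_mM_0014481 of Loxl2, passed with an adjusted p of 0.0440, as did 0.145% of all kept probes in that direction (29 of 19976).

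**Figure D3:**
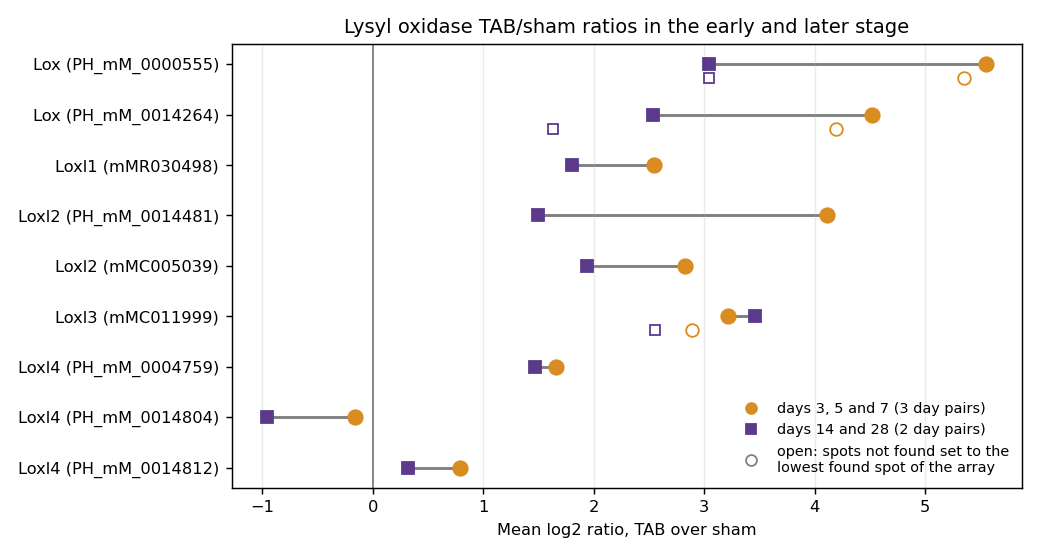
Mean log2 TAB/sham ratio of each lysyl oxidase probe over days 3, 5 and 7 (orange circles) and over days 14 and 28 (violet squares). Open markers give the means with spots not found set to the lowest found spot of the array. The later mean lies to the left of the early one by 2.61 for PH_mM_0014481 and by 0.89 for mMC005039 of Loxl2, and for Loxl3 it lies to the right as measured and to the left with the floor.

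Genes that act with the lysyl oxidases were described by gene lists, each gene by its kept probe of highest mean intensity. By this rule 8.33% of the 16113 genes rose and 6.73% fell. Of the 73 measured genes in the 8 lists, of which 2 were found on no array, 35 rose and 0 fell, with 3 more lower at an unadjusted p under 0.05 by limma. With both samples of one day left out, 0 of the 73 passed without day 3, 6 without day 5, 1 without day 7, 7 without day 14 and 35 without day 28. Of the collagens and elastin, the substrates, 8 of 10 measured genes rose and 0 fell, and Col1a1 was removed by the filter on low values. The fibrillar collagen chains Col3a1, Col1a2, Col5a2 and Col5a1 had mean log2 ratios of 3.68, 3.49, 3.06 and 2.48, and Eln, elastin, one of 1.90. Col5a3 (0.10) and Col2a1 (0.54) did not pass.

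Of the proteases and enhancers that process lysyl oxidase and procollagen, 3 of 5 measured genes rose. These were Pcolce, an enhancer of procollagen C-proteinase, by 1.81 on the log2 scale, Adamts2, a procollagen N-proteinase, by 1.56, and Bmp1, which removes the Lox propeptide, by 1.05. The filter removed Tll1, Tll2 and Adamts3. Of the matrix partners of the enzymes, 10 of 15 rose, among them Tnc (4.06), Postn (3.37), Fn1 (2.80) and Thbs1 (2.11), all matricellular or fibronectin-type glycoproteins. Ltbp4 (−0.21), Ltbp1 (0.02), Dcn (0.19) and Emilin1 (0.36) did not pass, nor did Fbn2, whose spot was found on 2 TAB arrays and 0 sham arrays.

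The lysyl hydroxylases, which prepare the lysines that lysyl oxidases oxidize, and the collagen folding proteins had 7 of 13 measured genes higher. The median log2 ratio of the 13 was 0.84. The largest of the 7 were Fkbp10 (1.08), a chaperone of procollagen, Fkbp14 (0.99), Leprel1 (0.90), a prolyl 3-hydroxylase, and Plod3 (0.88), a lysyl hydroxylase. Serpinh1, the largest of the 13 at 1.14, and Lepre1 (0.95) did not pass. Plod1 had a mean log2 ratio of 0.00 and Plod2 one of 0.73, and neither passed.

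Of the genes of copper supply, 2 of 9 rose, namely Atp7a, the copper pump that loads secreted enzymes, by 0.63 and Atox1, its chaperone, by 0.44. None of the 3 other copper amine oxidases, Abp1 (−0.56, found on 4 of 10 arrays), Aoc2 (−0.21) and Aoc3 (0.20), passed the test (limma adjusted p from 0.318 to 0.545, and 0 of 3 at an unadjusted p under 0.05). Of the other matrix cross-linking enzymes, Tgm2, tissue transglutaminase, rose by 1.07 and F13a1, the coagulation transglutaminase, by 0.60, while the spot of Tgm3 was found on 0 of 10 arrays, and Tgm1 and F13b were removed by the filter. Of the regulators of the transforming growth factor beta and hypoxia pathways, 3 of 15 rose: Ctgf (2.17), a matricellular target of the pathway, Tgfb3 (1.42), a ligand, and Tgfbr2 (0.91), a receptor. Tgfb1 (−0.34) and Hif1a (0.33) did not pass.

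**Figure D4:**
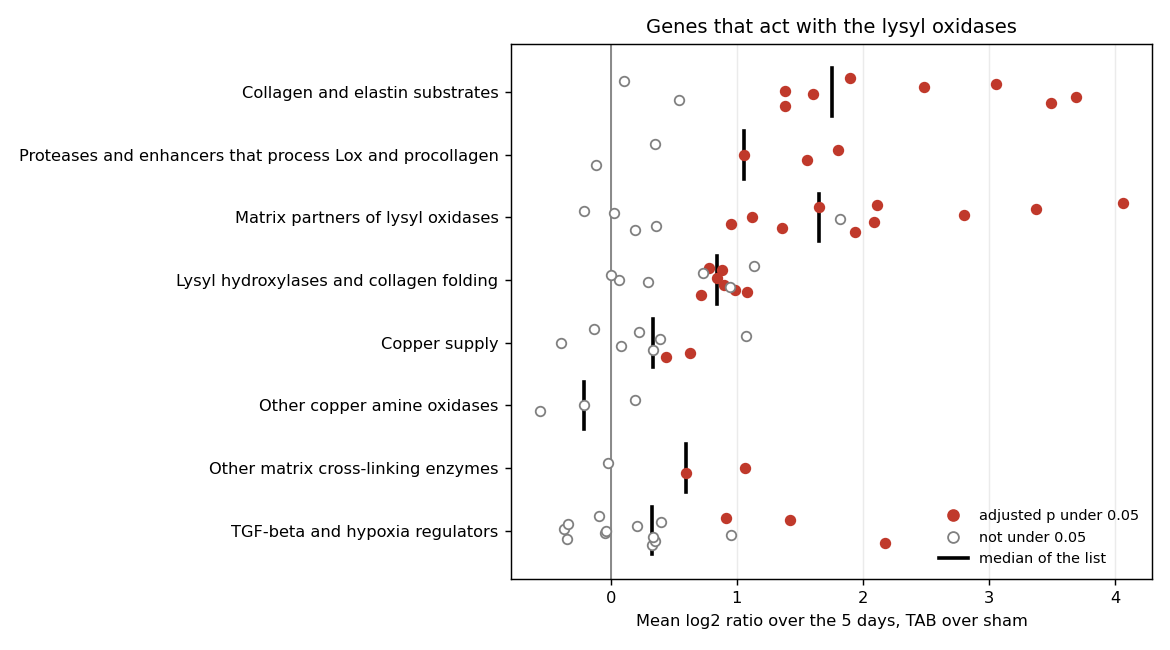
Mean log2 TAB/sham ratio over the 5 days for each measured gene of 8 lists of genes that act with the lysyl oxidases, red where the limma adjusted p is under 0.05, with the list's median as a bar. The substrates have a median of 1.75, the matrix partners 1.65 and the lysyl hydroxylases and folding proteins 0.84, and the other copper amine oxidases lie around 0.

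Most markers of myofibroblasts and of macrophages and leukocytes were also higher in TAB, while those of the other listed cell types mostly did not pass. In a whole ventricle a change in the number of cells of a type and a change in RNA per cell cannot be told apart. Of the myofibroblast markers, 4 of 5 rose (Postn, Tagln, Fap and Comp, with Acta2 at 0.53 not passing and Cthrc1 removed), and their summed normalized intensity was 7941 to 18212 in TAB against 1614 to 1861 in sham. Most of this sum was Postn, at 7215 to 17226 in TAB and 1190 to 1367 in sham, and the sham spot of Tagln was found on 0 of 5 arrays. Of the macrophage and leukocyte markers, 6 of 8 rose and 1, Cd3e of T cells, fell, and the sum was 2553 to 5793 in TAB against 1757 to 2146 in sham. Of the fibroblast markers, 3 of 7 rose (Mfap5, Pdgfrl and Lum), with a sum of 44687 to 56228 in TAB against 37830 to 42549 in sham, and Pdgfra was removed by the filter. Most of that sum was Dcn, at 28808 to 35916 in TAB and 25920 to 28486 in sham, which did not pass.

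Endothelial (0 of 6) and cardiomyocyte (0 of 8) markers had no call by limma, with adjusted p-values of at least 0.144 and 0.0646, and 1 and 2 of them had an unadjusted p under 0.05. Of the smooth muscle markers 1 of 4, Des, rose, by 0.50, and Myh11 (−0.11) and Smtn (−0.22) did not pass. The spot of Lmod1 was found on 0 of 10 arrays, and Cnn1 was removed by the filter. No marker that was kept was at 0 on an array, since the filter removes such probes. The part of these cell types in the lysyl oxidase values was not tested. Postn is in both the list of matrix partners and that of myofibroblast markers, and Dcn in both the matrix partners and the fibroblast markers.

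**Figure D5:**
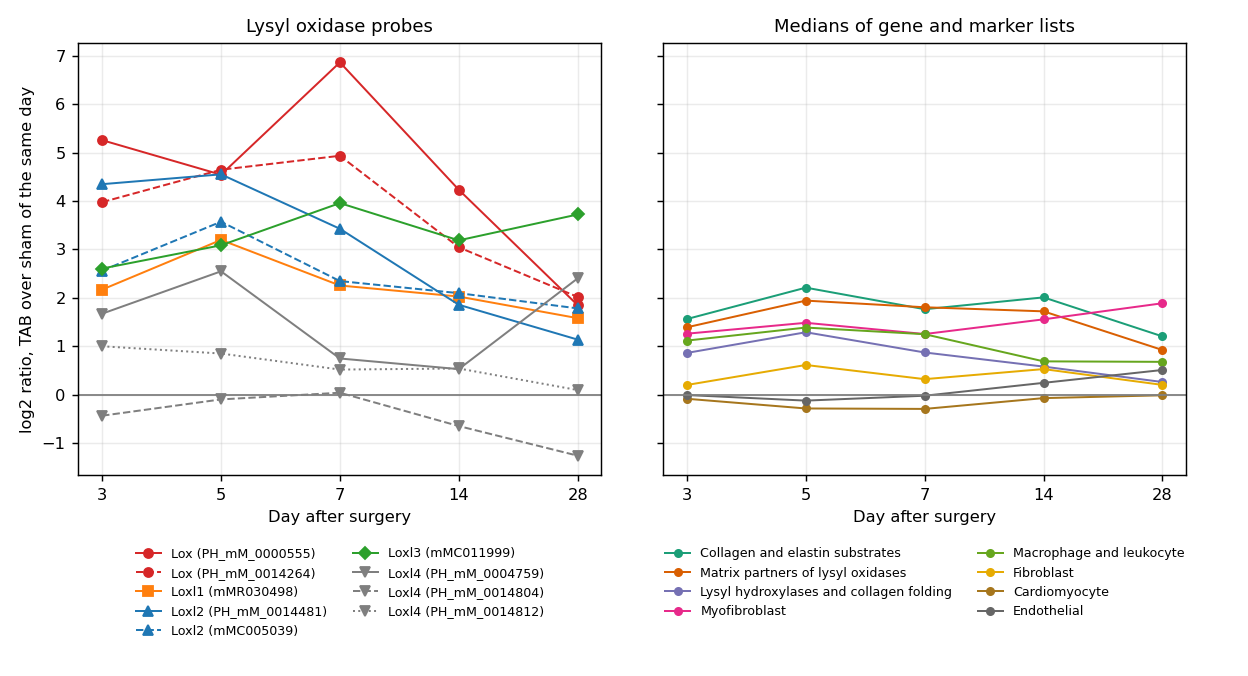
Log2 TAB/sham ratio by day after surgery for the 9 lysyl oxidase probes (left) and for the medians of gene and marker lists (right), on the same vertical scale. The substrates' median was 2.21 on day 5 and 1.20 on day 28, and the macrophage and leukocyte median went from 1.39 on day 5 to 0.68 on day 28. The day 28 myofibroblast median is the value of Tagln, whose sham spot was not found, and 4 of 5 markers had a larger ratio early.

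Genes with the most similar course were found by the root mean square difference of the 5 daily log2 ratios, over 12860 other genes whose probe was found on at least 5 arrays. Nearest to Loxl1 were Meox1, a homeobox gene, at 0.17, Emp1 at 0.22 and Ddah1 at 0.23. Meox1 (0.27) and Ddah1 (0.29) were also nearest to mMC005039 of Loxl2, followed by Prrx2 at 0.32. The sham spot of Ddah1 was found on 3 of 5 arrays and that of Prrx2 on 0 of 5.

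For PH_mM_0014481 of Loxl2 the gene named by this rule was Hist1h2ao, a histone gene, at 0.57. No nearest genes are given for the called probes of Lox, Loxl3 and Loxl4 (PH_mM_0004759), whose daily ratios rest wholly or in part on sham spots that were not found. These values describe 5 days that share the same 10 arrays.

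The calls rest on few samples. The 1 probe that passed without day 3 or day 7 was Loxl3, whose sham spot was found on 0 of 5 arrays. The 3 that passed without day 5 or day 14 were Loxl1, mMC005039 of Loxl2 and Loxl3. The mean log2 ratio of PH_mM_0000555 of Lox stayed between 3.97 and 5.23 in these fits, that of Loxl1 between 2.01 and 2.41 and that of mMC005039 between 2.20 and 2.65. With values below 1 set to 1 in place of the filter, PH_mM_0000555 of Lox (adjusted p = 0.0516), PH_mM_0014481 of Loxl2 (0.0631) and PH_mM_0004759 of Loxl4 (0.0790) did not pass. With 50 added to each normalized intensity, the mean log2 ratio of the Lox probes was 2.94 and 1.36 in place of 4.55 and 3.73, and that of PH_mM_0004759 of Loxl4 was 0.59 in place of 1.58, all 3 still passing. The number of probes called among all 19976 fell to 13 without day 3, 35 without day 5, 23 without day 7 and 184 without day 14, and was 2773 without day 28. A rule chosen after seeing the data asks for a detection p-value under 0.05 on at least 3 TAB arrays. The 4 called probes that meet it are PH_mM_0000555 of Lox, Loxl1 and both of Loxl2. The rule looks at TAB arrays alone, the group where these probes are high, so it is no support for the calls. PH_mM_0000555 and PH_mM_0014481 had such a p-value on 0 of 5 sham arrays.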

How the data were processed

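Total RNA of 10 left ventricle samples was labelled with Cy5 and hybridized to the Mouse Whole Genome OneArray, scanned in 1 colour. The authors deposited raw intensity per probe and array, not scaled between arrays, from which a background had been subtracted by a method not given in the sources used here. A detection p-value and a flag for each spot were deposited too, neither explained, and a flag below 0 was read as a spot not found.

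Following the study's methods, the median of every array was set to one value, any probe then reading below 1 on an array was dropped, and the rest was quantile normalized, with the rank medians as the target, and log2 transformed. The methods take these medians for each condition, which can be read as a target for each operation. Here 1 target was used for all 10 arrays, and a target within each operation was an alternative. Probes were kept apart, since the methods' choice of the probe with the largest change uses the tested outcome. limma 3.58.1 in R 4.3.3 (lmFit, eBayes) was fitted to all kept probes with day as a block, adjusted by Benjamini-Hochberg at 0.05, and tested on simulated data. Python 3.11.15 was used for the rest. The number of arrays limits the precision.

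Named are all family probes, up to 4 called genes per list with the largest absolute mean ratio, the genes of lists of 5 or fewer, and the 3 genes nearest in course to each called family probe, among genes found on at least 5 arrays. The nearest genes are left out for the called probes of Lox, Loxl3 and Loxl4, a choice made after their values were seen, since sham spots of these probes were not found. Other list genes, such as Eln, Plod1, Plod2, Tgfb1, Hif1a and those said not to pass, were named after their values were seen. The family and the lists were chosen with earlier results of these data known. Alternatives were other normalizations, 50 added before log2, other filters, probe summaries, models and thresholds, and each day left out. Added after seeing the data were floors for spots not found and a rule on the detection p-value.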

Additional observations from a re-analysis of the deposited data

Results flagged for a closer look

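In the 18 groups of 5 samples formed by the 9 family probes and the 2 operations, 2 held a sample that stood apart by Dixon's test on the log2 scale, which chance gives in about 1 of 20 groups. The sham sample of day 28 was low for PH_mM_0014264 of Lox, at 2.32 with a gap of 0.8527 of the group's range, and its spot was not found. The TAB sample of day 28 was low for mMR030498 of Loxl1, at 1805 with a gap of 0.7353 of the range, and its spot was found.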

How the results depend on the processing

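The direction of the mean TAB/sham ratio of each family probe was kept under every alternative that kept the probe. The filter on mean intensity removed Loxl3, PH_mM_0014264 of Lox and PH_mM_0004759 of Loxl4, the filter on found spots removed PH_mM_0014264, and the methods' rule kept 5 probes. The call of Loxl3 held in the 16 alternatives that kept it, with limma adjusted p-values up to 0.0435. All of them rest on a sham spot found on 0 of 5 arrays, and it passed the filter on found spots through the TAB arrays alone. With values below 1 set to 1 in place of the filter, 4 of 10 family probes and 15 list genes passed, against 7 of 9 and 35 of 73. With the mean of all probes of a gene, 4 of 5 genes passed and 20 of 25 gene and day pairs exceeded 2 SDs, against 31 of 45. With 3 SDs, 18 pairs did. A detection p-value under 0.05 on at least 3 TAB arrays, a rule tied to the group where the probes are high, left 4 called probes. With one day left out, 1 to 7 family probes and 0 to 35 list genes passed. With spots not found raised to either floor, 8 family probes and 37 list genes passed, and 31 pairs exceeded 2 SDs, 1 of them lower where none was as measured. With trend and robust on, 1 probe passed the comparison of stages, in place of 0. The Loxl3 difference between stages, 0.24, became −0.32 with 50 added, −0.33 and −0.47 with spots not found raised to the lowest or the 1st percentile of the found spots, −0.067 without day 3 and −0.029 without day 28, and was at most 0.61 with one day left out, and that of PH_mM_0004759 of Loxl4, −0.19, ranged from −1.13 to 0.75 with one day left out. PH_mM_0014812 of Loxl4 passed in 9 of 16 alternatives. The cause of these changes was not tested.

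Of all 2836 probes called, 1492 were higher, against 1747 of 2631 with median scaling and 1856 of 2835 with normalization within each operation. Deviations from the group mean correlated across probes between the same-day TAB and sham arrays with r of 0.00148 to 0.112, above 0.1 on day 3 alone. With no replicate block for the day, 7 of 9 family probes passed, as with it, and 3875 probes in all. With all days in, calls over all probes ranged from 371 with low values set to 1 to 4890 with 50 added. Dim spots limit Loxl3, Loxl4 and PH_mM_0014264 of Lox: with 50 added, their mean log2 ratios were 1.12, 0.59 (PH_mM_0004759) and 1.36, and that of PH_mM_0000555 of Lox was 2.94.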
